A study of Homo sapiens with 8 samples.

Results

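PRSS23 and 9 genes grouped with it around secreted and membrane serine proteolysis were followed in HCT116 cells, an established human colorectal cancer line. The group comprised 6 serine proteases (PRSS23, PRSS8, ST14, PLAU, HTRA1 and HTRA2), the urokinase receptor gene PLAUR, and the inhibitor or serpin genes SPINT1, SPINT2 and SERPINB5. PRSS23 was chosen from its increase in these same libraries, and the other 9 genes were chosen by function with earlier results of these data known. The 10 genes are 10 of 78932 gene identifiers in the deposited tables, and each was found by its Ensembl identifier. The cells carried a dTAG degradation tag on NUDT21, the small subunit of cleavage factor Im, an RNA-binding factor that acts upstream of cleavage sites. All cells received JTE-607, a compound that blocks CPSF73, the endonuclease that cuts pre-mRNA at poly(A) sites. The 4 libraries of the DMSO group had DMSO, the solvent, beside JTE-607, and the 4 of the dTAGV1 group had dTAGV1, a degrader that acts on dTAG-tagged proteins, beside JTE-607. Doses, times, and whether the tagged cells are 1 clone are not given in the sources used here. No library without JTE-607 entered, so each difference below is that of dTAGV1 against DMSO in its presence.

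Trypsin-like serine proteases are made as inactive precursors and cut proteins at the cell surface and in the matrix. In epithelia, the membrane protease matriptase (ST14) and the GPI-anchored prostasin (PRSS8) activate each other's pathways and are held in check by the Kunitz inhibitors HAI-1 (SPINT1) and HAI-2 (SPINT2). Urokinase (PLAU) binds its receptor (PLAUR) and converts plasminogen to plasmin. HtrA proteases are a separate serine protease family, secreted in the case of HTRA1 and mitochondrial in the case of HTRA2.

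The libraries were made from poly(A) RNA and read transcript 3′ ends, so the annotated 3′ ends of the transcripts are shown first. The last 30 bases of the principal transcript in GENCODE 29 (GRCh38) held a canonical poly(A) signal, AATAAA or ATTAAA, in 6 of the 10 genes. For comparison, 67.6% of 10637 tested protein-coding genes held either signal in the same window. The sequences below run 5′ to 3′ on the strand of the gene, and capitals mark the signal. They are shown because a read of this assay starts upstream of such an end.
PRSS23, chr11:86811204-86811233, plus strand: gcatttaAATAAAcatctttgatcacaaaa
PLAU, chr10:73917468-73917497, plus strand: gtgatcAATAAAatgtgatttttctgatga
SPINT2, chr19:38292585-38292614, plus strand: cacaagatgaAATAAAtgtcctattactga
SERPINB5, chr18:63505056-63505085, plus strand: ctattgacAATAAAatattattgaactaca
PRSS8, chr16:31131433-31131462, minus strand: ggcagaaatgATTAAAatgtttgagcacaa
HTRA1, chr10:122514879-122514908, plus strand: tgagctATTAAAgtacttcttacacattgc

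Cleavage factor Im recognises UGUA, written TGTA here, and this motif was counted on the strand of the gene in the last 100 bases of the same transcripts. PRSS23, PLAU and ST14 each held 2 copies, PLAUR and SERPINB5 held 1, and HTRA1, HTRA2, PRSS8, SPINT1 and SPINT2 held 0. Over the 10637 genes, 55.6% held at least 1 copy and 21.5% at least 2. Of members with 1 or 2 copies, PLAU and PLAUR passed the test described below and ST14 and SERPINB5 did not. PRSS23 was chosen for its change. Of those with 0, SPINT2 and HTRA2 passed, PRSS8 and SPINT1 did not, and HTRA1 was not tested. A link between motif copies and changes was not tested. The copy farther from the end in PRSS23 and in PLAU, the members with the largest fold changes, is shown with capitals on the motif.
PRSS23, chr11:86811163-86811192, plus strand: gaagacctgtTGTAaagggacaagttgagg
PLAU, chr10:73917398-73917427, plus strand: ggaccactccTGTAcactgaatatttatat
These ends are annotated ones, and which poly(A) sites the cells used was not measured. A motif match is a description of letters.

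Libraries held 3447842 to 4291256 counts on the strand of the gene. NUDT21 had 104 to 139 counts in the DMSO libraries and 15 to 43 in the dTAGV1 libraries. Reads not mapped were 20.4% of dTAGV1 replicate 4 and 24.9% to 30.3% of the other 7 libraries. The mitochondrial share of sense counts was 7.98% to 8.56% with DMSO and 9.22% to 10.4% with dTAGV1, and uniquely mapped reads in no gene were 30.1% to 33.7% and 35.9% to 37.4%, both without overlap. Of 10 colorectal epithelial markers 6 were tested, the summed level of the list was 1579 to 1833 CPM with DMSO and 1256 to 1354 CPM with dTAGV1, KRT20 and VIL1 had at most 3 counts in any library and CDX1 had 0. CPM denotes counts per 1000000 sense counts of the tested genes after TMM scaling. Of 6 fibroblast markers only COL1A1 was tested, with 37 to 73 counts, and none of the 6 leukocyte or 5 endothelial markers passed the filter on low counts. Of the 6 tested epithelial markers, KRT19 (786 to 499 CPM) and KRT18 (408 to 269 CPM) were called lower, EPCAM (273 to 331 CPM) was called higher, and KRT8, CDX2 and CDH1 were not called. The part of these library and marker differences in the results below was not tested.

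**Figure D1:**
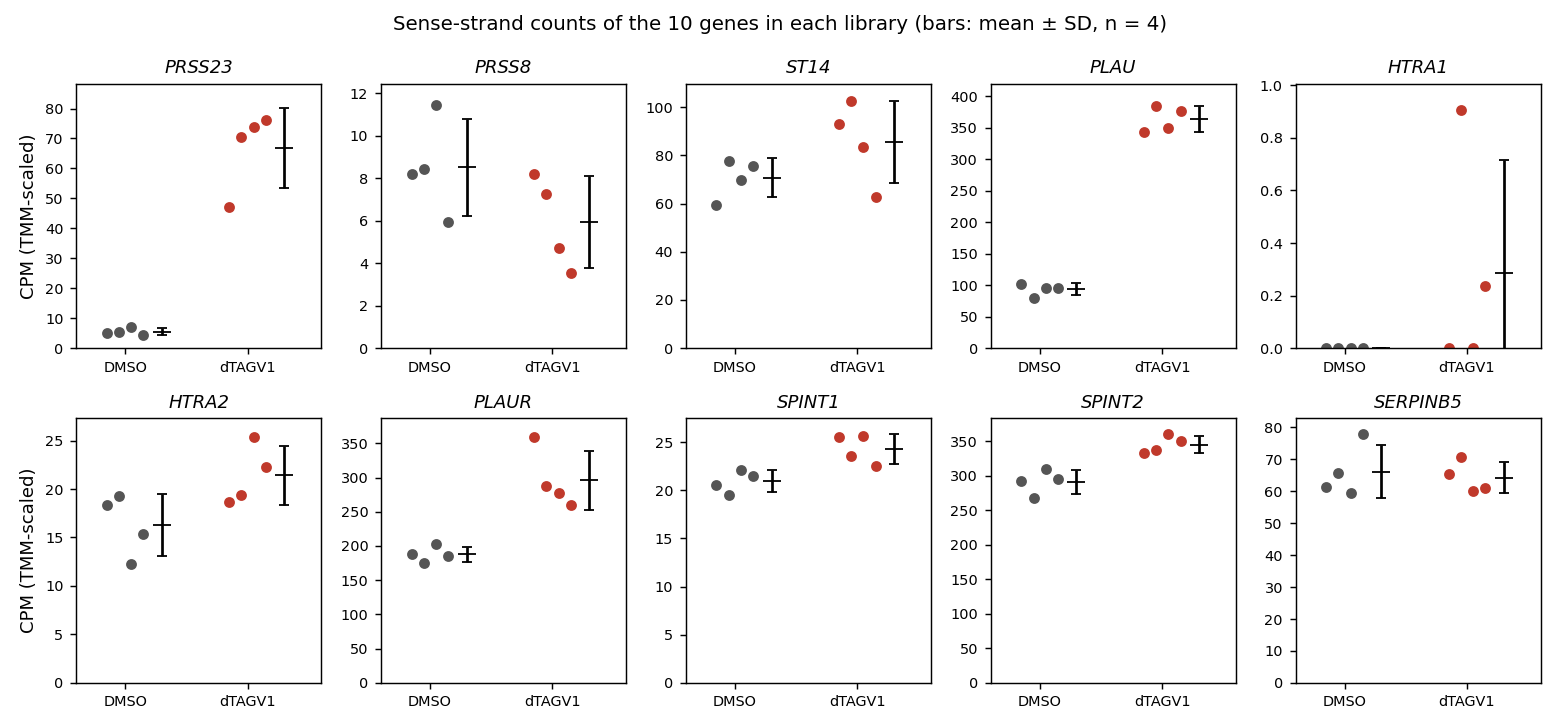
Level of each of the 10 genes in each library, in CPM after TMM scaling (vertical axes, each starting at 0), for the DMSO and dTAGV1 groups. Points are replicates 1 to 4 from left to right and bars are mean ± SD of 4 libraries. PRSS23 runs from 4.45 to 7.2 CPM with DMSO and from 47.1 to 76.2 CPM with dTAGV1, and SERPINB5 overlaps between the groups.

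PRSS23 encodes a secreted trypsin-like serine protease (ENSG00000150687; GRCh38 chromosome 11, 86791059 to 86952910, plus strand, protein-coding). The 4 DMSO libraries, in order of replicate, held 18, 23, 27 and 18 of its counts, and the 4 dTAGV1 libraries 166, 233, 251 and 322. These are levels of 4.92, 5.55, 7.2 and 4.45 CPM with DMSO, and of 47.1, 70.4, 73.9 and 76.2 CPM with dTAGV1. The groups were far apart, and dTAGV1 replicate 1 was the lowest of its group. Means were 5.53 ± 1.2 and 66.9 ± 13.4 CPM (SD, n = 4 each). On the log2 scale the fold change was 3.59 ± 0.18 (SE). That is a 12.1-fold higher level with dTAGV1. Because this change put PRSS23 in the group, it is a description and no test is given. It ranked 3 of 9322 tested genes that averaged 10 CPM or more, by log2 fold change. In bulk RNA, a change in the number of cells that express a gene and a change in RNA per cell cannot be told apart.

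Counts of PRSS23 on the opposite strand were 2 to 10 per library. Over the DMSO libraries they were 19 beside 86 sense counts, or 18.1% of both strands. Over the dTAGV1 libraries they were 27 beside 972 sense counts, or 2.70%. Too few for the filter on low counts, they were not tested. The antisense gene that GENCODE 29 places on the other strand of PRSS23, PRSS23-AS1 (ENSG00000255471), had 1.44 ± 1.31 CPM with DMSO and 4.36 ± 0.643 CPM with dTAGV1 (SD, n = 4 each). It rose by 1.601 ± 0.41 on the log2 scale (SE; edgeR quasi-likelihood fit, BH-adjusted p = 0.00184), where BH is the Benjamini-Hochberg adjustment over all tested genes. At 1.44 CPM with DMSO, PRSS23-AS1 may have passed the filter on low counts through the dTAGV1 group alone. Its p-value is therefore given as a description. FZD4, a Wnt receptor gene, overlaps the far end of PRSS23 on the other strand and had 4.5 ± 1.73 and 3.7 ± 0.489 CPM (edgeR, BH-adjusted p = 0.439). The nearest tested genes beyond the locus did not pass the test either. HIKESHI, 445128 bases upstream, had a log2 fold change of 0.10 (edgeR, BH-adjusted p = 0.399), and TMEM135, 84934 bases downstream, had one of -0.22 (edgeR, BH-adjusted p = 0.145). The principal coding transcript of PRSS23 ends at 86811233, well before the annotated end of the gene at 86952910.

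Likeness to PRSS23 was measured as the Euclidean distance between log2 CPM profiles over the 8 libraries, each centred on its own mean, among 9321 other genes that averaged 10 CPM or more. The nearest 5 were ENSG00000308687 at a distance of 0.915, the pseudogene ZKSCAN8P1 at 0.951, ENSG00000267405 at 1.12, GCNT3 at 1.21 and SPX at 1.22. GCNT3, a glycosyltransferase of mucin-type glycans, went from 5.67 ± 0.646 to 41.3 ± 5.07 CPM, and SPX, which encodes the peptide hormone spexin, from 2.19 ± 0.22 to 18.8 ± 1.42 CPM (SD, n = 4 each). Reads of ZKSCAN8P1 can be shared with its parent gene, so its value is uncertain. With the difference between groups setting the profile, this is a list of genes with an increase of similar size.

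PLAU encodes urokinase, the protease that activates plasminogen (ENSG00000122861; chromosome 10, 73909177 to 73917497, plus strand, protein-coding). DMSO replicates 1 to 4 held 373, 331, 360 and 386 counts, and dTAGV1 replicates 1 to 4 held 1211, 1274, 1189 and 1594. Levels were 102, 79.8, 96 and 95.5 CPM with DMSO and 343, 385, 350 and 377 CPM with dTAGV1. All 4 dTAGV1 libraries were above all 4 DMSO libraries, with a spread within each group that was small beside the gap. PLAU rose from 93.3 ± 9.45 to 364 ± 20.2 CPM (SD, n = 4 each), which is 1.96 ± 0.08 on the log2 scale (SE; edgeR quasi-likelihood fit, BH-adjusted p = 1.56e-15). This is a 3.9-fold difference, and PLAU ranked 59 of those 9322 genes. Its call held in all 17 alternative settings, with log2 fold changes of 1.89 to 2.0. C10orf55 overlaps PLAU on the other strand and had too few counts to be tested, and PLAU had 2 opposite-strand against 6718 sense counts.

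PLAUR encodes the GPI-anchored receptor that holds urokinase at the cell surface (ENSG00000011422; chromosome 19, 43646095 to 43670547, minus strand, protein-coding). It had 188, 176, 202 and 186 CPM in DMSO replicates 1 to 4 and 359, 287, 278 and 260 CPM in dTAGV1 replicates 1 to 4. The groups did not overlap, and dTAGV1 replicate 1, the lowest for PRSS23, was the highest for PLAUR. PLAUR rose from 188 ± 10.99 to 296 ± 43.5 CPM (SD, n = 4 each), which is 0.66 ± 0.09 on the log2 scale (SE; edgeR quasi-likelihood fit, BH-adjusted p = 6.35e-07). The ratio of PLAU to PLAUR counts within a library, which needs no scaling, was higher in each dTAGV1 library than in any DMSO library. It was 0.542, 0.455, 0.475 and 0.514 with DMSO and 0.957, 1.34, 1.26 and 1.45 with dTAGV1. Means were 0.496 ± 0.0392 and 1.25 ± 0.212 (SD, n = 4 each), without overlap.

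**Figure D2:**
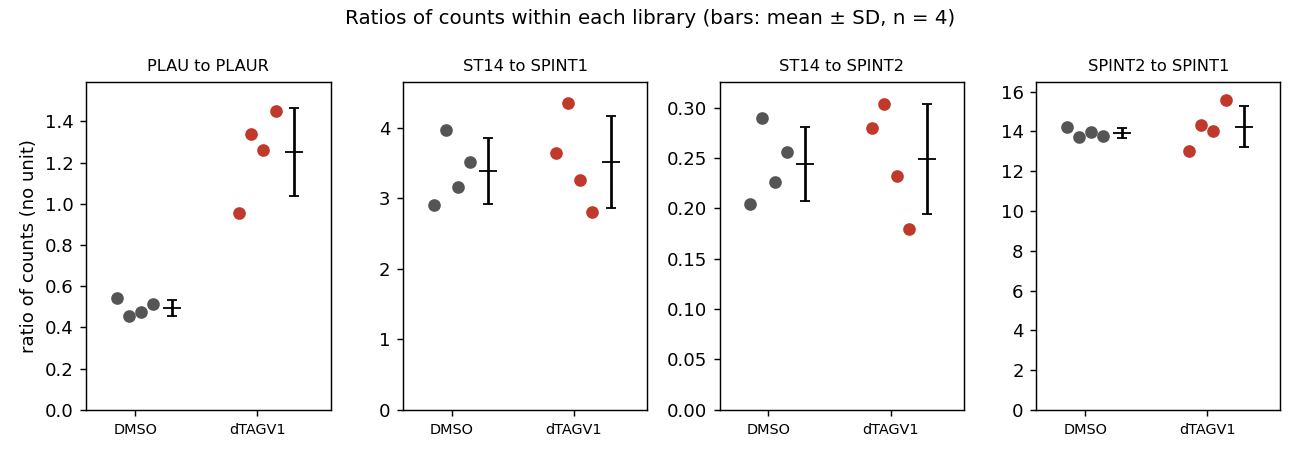
Ratios of sense counts of gene pairs within each library (vertical axes, no unit, starting at 0). Points are replicates 1 to 4 of each group and bars are mean ± SD of 4 libraries. The ratio of PLAU to PLAUR does not overlap between the groups, while the 3 ratios among ST14, SPINT1 and SPINT2 do.

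Matriptase and prostasin differed less. ST14, the gene of matriptase (ENSG00000149418; chromosome 11, 130159562 to 130210376, plus strand, protein-coding), had 59.6, 77.7, 69.9 and 75.7 CPM in DMSO replicates 1 to 4 and 93.0, 102, 83.7 and 62.9 CPM in dTAGV1 replicates 1 to 4. Of the dTAGV1 libraries 3 lay above all DMSO libraries and replicate 4 lay among them. Means were 70.7 ± 8.12 and 85.5 ± 16.9 CPM (SD, n = 4 each), and the log2 fold change, 0.26 ± 0.12 (SE), did not pass the test (edgeR, BH-adjusted p = 0.0721). Without dTAGV1 replicate 4, the library with the fewest unmapped reads, whose part in this was not tested, it was 0.38 and passed (edgeR, BH-adjusted p = 0.00232). Over all 17 alternatives the adjusted p ran from 0.00232 to 0.287.

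PRSS8, the gene of prostasin (ENSG00000052344; chromosome 16, 31131433 to 31135762, minus strand, protein-coding), was the only tested protease of the group with a lower mean with dTAGV1. Its counts were 30, 35, 43 and 24 with DMSO and 29, 24, 16 and 15 with dTAGV1, the latter the lowest count of any tested member in any library. Levels were 8.51 ± 2.27 and 5.93 ± 2.17 CPM (SD, n = 4 each), which overlap between the groups. Its log2 fold change, dTAGV1 over DMSO, was -0.53 ± 0.27 (SE) and did not pass the test (edgeR, BH-adjusted p = 0.0901). Leaving out dTAGV1 replicate 1 gave -0.75 (edgeR, BH-adjusted p = 0.0285) and leaving out DMSO replicate 4 gave -0.68 (edgeR, BH-adjusted p = 0.0417).

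Of the Kunitz inhibitors of these proteases, SPINT2 (ENSG00000167642; chromosome 19, 38244035 to 38292614, plus strand, protein-coding) had 292, 268, 309 and 296 CPM with DMSO and 332, 337, 360 and 350 CPM with dTAGV1. It rose in a narrow range without overlap, from 291 ± 17.2 to 345 ± 12.4 CPM (SD, n = 4 each), which is 0.24 ± 0.07 on the log2 scale (SE; edgeR quasi-likelihood fit, BH-adjusted p = 0.00372). SPINT1 (ENSG00000166145; chromosome 15, 40844018 to 40858207, plus strand, protein-coding) had 20.5, 19.5, 22.1 and 21.5 CPM with DMSO and 25.5, 23.6, 25.6 and 22.5 CPM with dTAGV1. Its groups did not overlap either, but the log2 fold change, 0.21 ± 0.13 (SE), did not pass the test (edgeR, BH-adjusted p = 0.173). Ratios of protease to inhibitor counts overlapped between the groups. ST14 to SPINT1 was 3.39 ± 0.464 with DMSO and 3.51 ± 0.654 with dTAGV1, and ST14 to SPINT2 was 0.244 ± 0.0371 and 0.249 ± 0.0546 (SD, n = 4 each). SPINT2 had about as many counts per SPINT1 count in both groups, 13.9 ± 0.236 and 14.2 ± 1.04 (SD, n = 4 each).

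The antisense gene SPINT1-AS1 overlaps the first 370 bases of SPINT1 on the other strand. SPINT1-AS1 fell from 17.5 ± 1.98 to 6.44 ± 1.89 CPM (SD, n = 4 each), which is -1.43 ± 0.20 on the log2 scale (SE; edgeR quasi-likelihood fit, BH-adjusted p = 1.5e-06). The 676 sense counts of SPINT1 faced 14 on the opposite strand.

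SERPINB5 encodes maspin, a serpin that does not act as a protease inhibitor in the usual way (ENSG00000206075; chromosome 18, 63476761 to 63505085, plus strand, protein-coding). It had 61.5, 65.8, 59.5 and 77.9 CPM with DMSO and 65.5, 70.7, 60.1 and 61.0 CPM with dTAGV1. The groups overlapped, at means of 66.2 ± 8.25 and 64.3 ± 4.85 CPM (SD, n = 4 each). On the log2 scale its fold change was -0.04 ± 0.10 (SE) (edgeR, BH-adjusted p = 0.723), and no direction is given for it.

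HTRA2 encodes the mitochondrial protease Omi, which can bind inhibitor of apoptosis proteins once released (ENSG00000115317; chromosome 2, 74529377 to 74533348, plus strand, protein-coding). Its levels were 18.3, 19.3, 12.3 and 15.3 CPM with DMSO and 18.7, 19.3, 25.3 and 22.2 CPM with dTAGV1. The highest DMSO and the lowest dTAGV1 libraries overlapped. The mean rose from 16.3 ± 3.17 to 21.4 ± 3.04 CPM (SD, n = 4 each), which is 0.39 ± 0.16 on the log2 scale (SE; edgeR quasi-likelihood fit, BH-adjusted p = 0.0422). This call was lost in 8 of 15 alternatives, among them leaving out DMSO replicate 3 or 4 (0.27 and 0.36, edgeR adjusted p = 0.172 and 0.103) or dTAGV1 replicate 3 or 4 (0.29 and 0.35, edgeR adjusted p = 0.169 and 0.0933). HTRA1 (ENSG00000166033; chromosome 10, 122458551 to 122514908, plus strand, protein-coding) had at most 3 counts in any library and was not tested. It had 0 of 15308828 sense counts over the DMSO libraries, which allows a level of up to 0.196 CPM (3 counts of the total). Over the dTAGV1 libraries it had 4 of 14938519, a level of 0.268 CPM with an exact Poisson 95% interval of 0.073 to 0.686 CPM, 3 of the 4 in replicate 2. Both limits cover counting error only.

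Of the 9 members tested, 5 were called higher with dTAGV1 (55.6%) and 0 lower at an adjusted p under 0.05. Over all 12618 tested genes 57.9% were called, 29.4% higher and 28.5% lower. PRSS23 counts among the 5 by its choice, and without it 4 of 8 were called, so that the share of members called was near that of all genes. The 4 not called were PRSS8, ST14, SPINT1 and SERPINB5. Apart from PRSS23, the groups were without overlap in CPM for 4 of 8, namely PLAU, PLAUR, SPINT1 and SPINT2, against 50.9% of all tested genes. The median log2 fold change of these 8 was 0.25, beside 0.01 over all tested genes. All 9 had at least 15 counts in every library, so none passed the filter on low counts through 1 group alone.

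**Figure D3:**
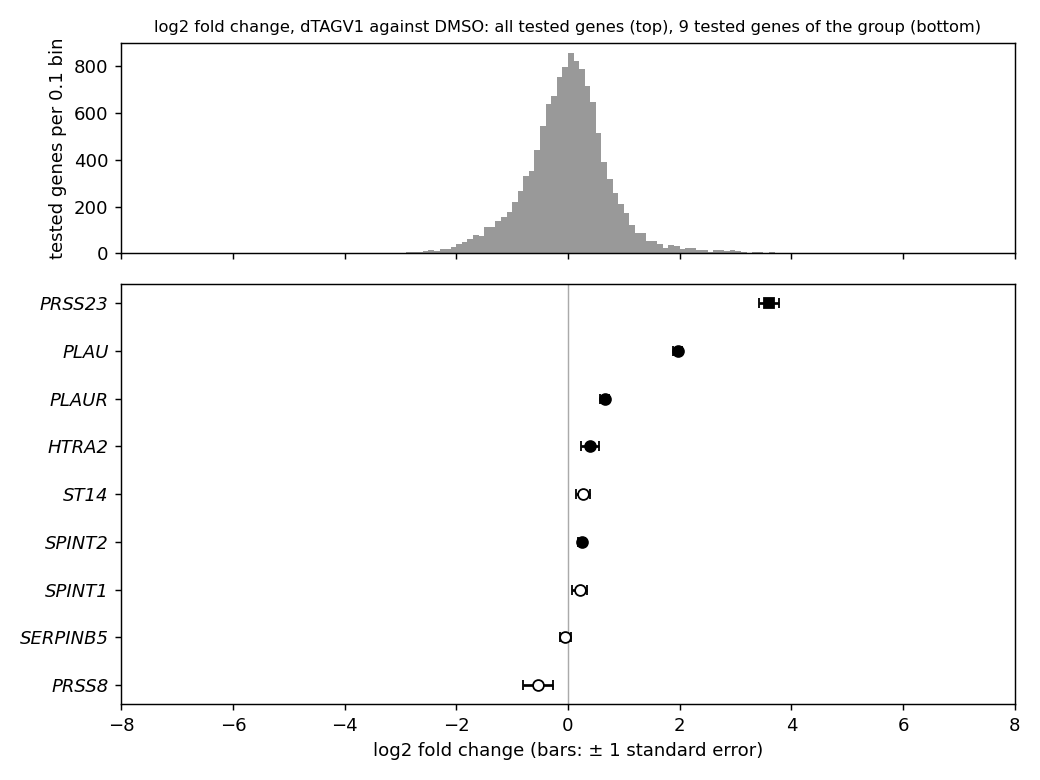
Log2 fold change of dTAGV1 against DMSO (horizontal axis) for all 12618 tested genes as a histogram (top) and for the 9 tested members with bars of 1 standard error (bottom). Filled circles passed the test and open circles did not, and the square is PRSS23, which was chosen for its change. PRSS23 at 3.59 and PLAU at 1.96 lie in the upper tail, while the other 7 lie between -0.53 and 0.66.

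The order of the levels changed with these differences. The assay reads transcripts by tags at the 3′ end, so CPM was compared between genes without a length correction. With DMSO the order of mean levels was SPINT2, PLAUR, PLAU, ST14, SERPINB5, SPINT1, HTRA2, PRSS8, PRSS23 and HTRA1, and neighbours overlapped only for ST14 with SERPINB5 and PRSS8 with PRSS23. With dTAGV1 PLAU came first at 364 ± 20.2 CPM, but its libraries overlapped those of SPINT2 at 345 ± 12.4 CPM, which in turn overlapped those of PLAUR. PRSS23 moved from the lowest detected level to 66.9 ± 13.4 CPM, where its libraries overlapped those of ST14 and SERPINB5. PRSS8, at 5.93 ± 2.17 CPM, was then the lowest of the 9 tested members.

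Which strand was counted decided the values of 3 members. HTRA2 had 565 sense counts in all but 7 when strand was ignored, SPINT2 had 9523 and 64, and PRSS8 had 216 and 21. In the STAR layout a read that fits genes on both strands is given to neither when strand is ignored. GENCODE 29 places AUP1 and LOXL3 on the other strand across parts of HTRA2, and the antisense gene AC009088.3 across the 3′ end of PRSS8. At SPINT2 it places PPP1R14A on the other strand, but not at the 3′ end, and what removed the SPINT2 counts was not tested. It also places the protein-coding gene AC011479.1 on the same strand across the 3′ end of SPINT2, with 3464 bases shared. The part of AC011479.1 in the SPINT2 sense counts was not tested. ST14, SERPINB5 and PLAU together had 2 opposite-strand counts against 11006 sense counts. AUP1, which covers the first 563 bases of HTRA2, had a log2 fold change of -0.07 (edgeR, BH-adjusted p = 0.564). LOXL3, which covers the last 935 bases of HTRA2 with its 3′ end, was not tested.

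**Figure D4:**
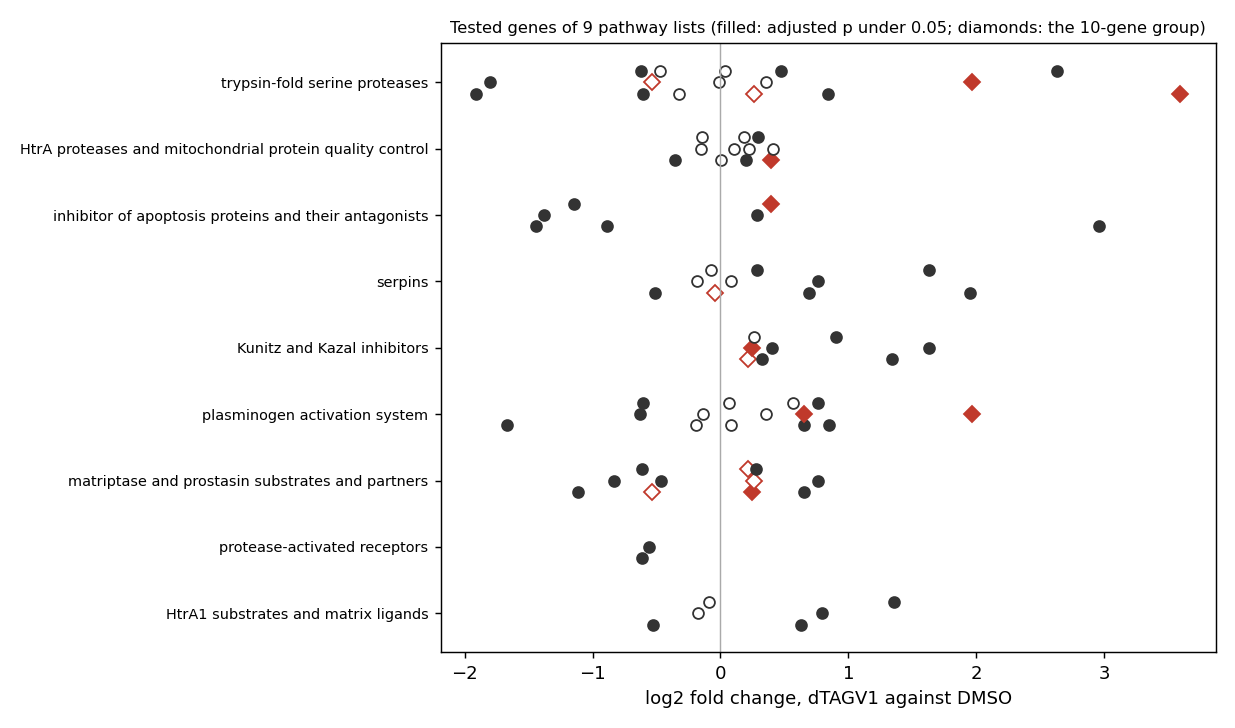
Log2 fold change of dTAGV1 against DMSO (horizontal axis) for the tested genes of 9 lists around the members (rows). Filled symbols passed the test at an adjusted p under 0.05 and diamonds are members, of which PRSS23 was chosen for its change. Tested protease-activated receptors both lie below 0. In the Kunitz and Kazal inhibitor list 6 of 8 tested genes are filled above 0, among them SLPI, which has neither domain. Of all tested genes 29.4% were called higher and 28.5% lower.

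Most other trypsin-fold serine protease genes did not pass the filter on low counts, and those that did moved both ways. Of 101 listed genes 16 were tested. The 16 include PRSS16, which was not called and does not have the trypsin fold. The counts and the median that follow include it. Without PRSS23, which was chosen for its increase, 4 of 15 were higher and 4 lower, beside 29.4% and 28.5% of all tested genes, and their median log2 fold change was -0.01. Beside PRSS23 and PLAU, PRSS12, which encodes neurotrypsin, rose from 14.8 ± 2.09 to 20.5 ± 1.53 CPM (SD, n = 4 each; edgeR, adjusted p = 0.0104). F12, the gene of coagulation factor XII, fell from 30.5 ± 1.58 to 8.69 ± 1.23 CPM (log2 fold change -1.80; edgeR, BH-adjusted p = 3.79e-10). The kallikrein gene KLK7 fell from 29.9 ± 1.39 to 19.3 ± 3.6 CPM (edgeR, BH-adjusted p = 0.00052). KLK10 and KLK6 were the other genes of this list called lower, and CFI and F10 the others called higher, each with a mean under 10 CPM. CFI, at 2.19 ± 1.69 CPM with DMSO, may have passed the filter on low counts through the dTAGV1 group alone.

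Among the serpins, 10 of 33 were tested, with 5 higher and 1 lower, beside 29.4% and 28.5% of all tested genes. The number lower was 2 with RLE or library size scaling, where SERPINB1 passed too. Without DMSO replicate 2, dTAGV1 replicate 1 or dTAGV1 replicate 2 the lower serpins also numbered 2. They numbered 2 as well without a filter on low counts, with a filter at a mean of 100 counts, and with strand ignored. SERPINE2, an inhibitor of thrombin and plasminogen activators, rose from 216 ± 8.03 to 366 ± 52.1 CPM (edgeR, BH-adjusted p = 2.95e-08), and SERPINB9, an inhibitor of granzyme B, from 61.9 ± 8.31 to 99.95 ± 9.01 CPM (edgeR, BH-adjusted p = 1.81e-06; SD, n = 4 each). SERPINH1, which encodes a collagen chaperone, rose from 133 ± 11.1 to 163 ± 22.8 CPM, with overlap between the groups (SD, n = 4 each; edgeR, BH-adjusted p = 0.0103). SERPINA5 and SERPINI1 were the others called higher, each with a mean under 10 CPM. SERPINA5, at 2.58 ± 0.791 CPM with DMSO, may have passed the filter on low counts through the dTAGV1 group alone. With a filter at a mean of 100 counts, which tests fewer genes, 3 serpins were called higher. SERPINB6 fell from 109 ± 7.45 to 76.3 ± 5.98 CPM (edgeR, BH-adjusted p = 1.77e-05). Of 8 tested genes among 22 in the Kunitz and Kazal inhibitor list, 6 were higher and 0 lower, beside 29.4% and 28.5% of all tested genes. The other 2 were SPINT1 and SPINK2. The 6 include the member SPINT2. They also include SLPI, which has neither domain, at 1.91 ± 0.587 CPM with DMSO and 4.93 ± 1.26 CPM with dTAGV1. SLPI may have passed the filter on low counts through the dTAGV1 group alone. TFPI, the inhibitor of the tissue factor pathway, rose from 61.1 ± 6.14 to 189 ± 18.2 CPM (log2 fold change 1.63; edgeR, BH-adjusted p = 1.75e-13). RECK, a membrane-anchored inhibitor of matrix proteases, rose from 13.8 ± 3.28 to 25.8 ± 7.02 CPM (edgeR, BH-adjusted p = 0.000265), and APP, which has a Kunitz domain in some isoforms, from 214 ± 8.86 to 283 ± 10.1 CPM (edgeR, BH-adjusted p = 1.69e-05; SD, n = 4 each).

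In the plasminogen activation system 14 of 18 genes were tested, with 5 higher and 3 lower, beside 29.4% and 28.5% of all tested genes. Under library size scaling 5 were lower. Beside PLAU, PLAUR and SERPINE2, the higher genes were ITGB1, which encodes an integrin subunit, and IGF2R. ITGB1 rose from 266 ± 7.68 to 479 ± 30.4 CPM (edgeR, BH-adjusted p = 1.55e-10). S100A10, a subunit of a plasminogen-binding complex with annexin A2, fell from 486 ± 22 to 318 ± 32.3 CPM (edgeR, BH-adjusted p = 1.7e-07), and MRC2, an endocytic collagen receptor that associates with PLAUR, from 22.2 ± 9.1 to 6.89 ± 1.2 CPM (edgeR, BH-adjusted p = 7.64e-06; SD, n = 4 each). PLGRKT, a plasminogen receptor with a mean under 10 CPM, was the other gene called lower, and plasminogen itself (PLG) had 0 counts in all 8 libraries. The median log2 fold change of the list was 0.22.

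Among substrates and partners of matriptase and prostasin, 11 of 21 were tested, 4 higher and 4 lower, beside 29.4% and 28.5% of all tested genes. The 11 include the members ST14, PRSS8, SPINT1 and SPINT2, and SPINT2 is among the 4 higher. MET, the receptor of hepatocyte growth factor, rose from 315 ± 13.8 to 535 ± 23.1 CPM (edgeR, BH-adjusted p = 6.32e-10), CDCP1, a surface protein that serine proteases cleave, from 622 ± 66.6 to 977 ± 121 CPM (edgeR, BH-adjusted p = 1.18e-06), and EPCAM from 273 ± 15.4 to 331 ± 31.1 CPM (edgeR, BH-adjusted p = 0.00282; SD, n = 4 each). SCNN1A, a subunit of the sodium channel that prostasin activates, fell from 35.3 ± 6.29 to 19.7 ± 3.9 CPM (edgeR, BH-adjusted p = 4.76e-05). F2RL1, the gene of protease-activated receptor PAR2, fell from 126 ± 23.4 to 82.4 ± 6.63 CPM (edgeR, BH-adjusted p = 3.15e-05). The thrombin receptor gene F2R fell from 40.5 ± 5.06 to 27.5 ± 1.55 CPM (edgeR, BH-adjusted p = 0.000308). Both tested protease-activated receptors of 4 were thus lower, where 28.5% of all tested genes were, and F2RL1 counts in both lists. PDGFC, also of this list, fell from 17.7 ± 2.71 to 12.9 ± 3.45 CPM (edgeR, BH-adjusted p = 0.0319), with overlap between the groups.

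Around HTRA2, 7 of 10 inhibitor of apoptosis proteins and their antagonists were tested, with 3 higher and 4 lower, where 57.9% of all tested genes were called. HTRA2 is 1 of the 3, and the number higher was 2 in the 8 alternatives in which HTRA2 lost its call. XIAP, which HTRA2 can bind, fell from 131 ± 7.37 to 47.8 ± 9.14 CPM (edgeR, BH-adjusted p = 2.71e-11), BIRC5, the gene of survivin, from 235 ± 59.7 to 89.7 ± 11.1 CPM (edgeR, BH-adjusted p = 0.000193), and BIRC2 from 108 ± 10.3 to 58.1 ± 6.17 CPM (edgeR, BH-adjusted p = 2.48e-08; SD, n = 4 each). BIRC3 rose from 16.0 ± 6.17 to 124 ± 32.7 CPM (log2 fold change 2.96; edgeR, BH-adjusted p = 2.42e-05), and BIRC6 from 128 ± 7.92 to 156 ± 6.2 CPM (edgeR, BH-adjusted p = 0.00204). Of 11 tested mitochondrial quality control genes 3 were called higher and 1 lower, beside 29.4% and 28.5% of all tested genes. With library size scaling 0 were called higher and 2 lower. Without a filter on low counts, DMSO replicate 3 or dTAGV1 replicate 4 the number higher was 1. Without dTAGV1 replicate 1 or 2, 3 and 2 were called lower. The 3 genes were HTRA2, CLPX and YME1L1, while PINK1, a kinase that marks damaged mitochondria, fell from 74.5 ± 5.46 to 58.2 ± 6.61 CPM (edgeR, BH-adjusted p = 0.00352; SD, n = 4 each). Of 6 tested substrates and matrix ligands linked to HTRA1, which itself was near 0, 3 were higher and 1 lower, beside the same shares. CLU, the gene of the chaperone clusterin, rose from 420 ± 23.1 to 1074 ± 111 CPM (edgeR, BH-adjusted p = 2.05e-13), and ADAM9 from 74.3 ± 5.91 to 115 ± 16.0 CPM (edgeR, BH-adjusted p = 4.49e-06; SD, n = 4 each). TGFB1 was the gene called lower, and lost that call with DESeq2 (adjusted p = 0.067) and without a filter on low counts. It also lost the call when DMSO replicate 2, DMSO replicate 4, dTAGV1 replicate 3 or dTAGV1 replicate 4 was left out. In each of these settings 0 were called lower. With a filter at a mean of 100 counts 0 were lower too, and with strand ignored 3 were.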

How the data were processed

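The authors deposited 1 table of whole-number read counts per gene for each of 8 libraries, made with the Lexogen QuantSeq forward 3′ kit from Trizol-extracted RNA, per the labels' protocols. The submitters' processing notes name FastQC, fastp, STAR, HTSeq, DESeq2 and GRCh38; versions, annotation and removal of PCR copies are not given in the sources used here. The sense-strand counts (column 3) entered the fits; totals of reads given to no gene (56.7% to 62.8% of reads) stayed out.

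Counts were fitted over all genes with edgeR 4.0.16 in R 4.3.3 (filterByExpr, TMM, robust quasi-likelihood F test, Benjamini-Hochberg (BH) adjustment over 12618 genes, threshold 0.05). Standard errors are the absolute log2 fold change over the square root of F. Groups come from the treatment in the labels. Nothing in the labels says that replicates are separate cultures, so p-values measure the spread between these libraries. In a chi-square comparison of counts, replicate pairs gave 1.82 to 5.09 per degree of freedom, above sampling noise. Intervals and floors cover counting error only. Members and lists were chosen with earlier results of these data known. Named list genes are, per list, up to 3 largest rises and 3 largest falls past the test with a mean of at least 10 CPM; others named were chosen after their values were seen. Noncoding symbols caught by name patterns (PRSS23-AS1, SPINT1-AS1, SERPINB9P1) were removed from lists after the values were seen, and 1 gene is not reported here and is in no list. Symbols came from the reference name table; positions and transcripts from GENCODE 29 on GRCh38, which is not stated to be the authors' annotation. Alternatives were RLE and library size scaling, DESeq2 1.42.0, limma-voom (limma 3.58.1), other filters, counts irrespective of strand, a replicate term, non-robust dispersions, and each library left out. The fit was tested on simulated data.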

Additional observations from a re-analysis of the deposited data

How the results depend on the processing

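Depth left HTRA1 untested, and none of the 10 genes could be tested on the opposite strand, so alternatives for that strand could not be run. PRSS23 ranged from 3.402 to 3.736 on the log2 scale over 17 alternatives. PLAU, PLAUR and SPINT2 kept their calls and SPINT1 stayed uncalled wherever tested. HTRA2 lost its call with library size scaling (0.32, adjusted p = 0.103), DESeq2 (0.38, adjusted p = 0.0798), no filter on low counts (0.37, adjusted p = 0.0824) and the replicate block (0.40, adjusted p = 0.0508). Leaving out each library moved HTRA2 from 0.27 to 0.48, PRSS8 from -0.75 to -0.35, ST14 from 0.15 to 0.38 and SERPINB5 from -0.10 to 0.04, where SERPINB5 turned positive without DMSO replicate 4 (0.038). ST14 passed without a filter (0.24, adjusted p = 0.0495). The number of members called lower was 0 to 1 over these 8 fits. Ignoring strand left 3 members called higher, since HTRA2 and SPINT2 were no longer tested. A filter at a mean of 100 counts left 4120 of all genes and 11 of the list genes called lower, against 7302 and 19, because fewer genes were tested. The replicate block called 7434 genes. Labels number the replicates alike in both groups, but deviations of same-numbered libraries correlated at 0.131, -0.0176, 0.0232 and 0.034, so the numbers were not taken to pair them. Causes of the other changes were not tested.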

Other observations

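Of the 20 nearest tested genes upstream or downstream of the members, 4 were called higher and 6 lower with dTAGV1, where 57.9% of all tested genes were called. The 10 not called were HIKESHI, TMEM135, KAT8, CAMK2G, PLEKHA1, FAM24B, PCGF1, ZFYVE19, RHOV and SERPINB8. The pseudogene AC009088.4, upstream of PRSS8, rose from 10.8 ± 3.93 to 33.6 ± 6.46 CPM (SD, n = 4 each; edgeR, Benjamini-Hochberg adjusted p = 4.3e-07), and its reads can be shared with its parent gene. C19orf33, downstream of SPINT2, fell from 13.7 ± 0.908 to 9.89 ± 2.61 CPM (SD, n = 4 each; edgeR, adjusted p = 0.0431). Upstream of SPINT2, 14321 bases away on the other strand, the chromatin remodelling gene DPF1 fell from 27.5 ± 6.12 to 8.85 ± 1.53 CPM (SD, n = 4 each; edgeR, Benjamini-Hochberg adjusted p = 3.33e-08), while SPINT2 itself rose. VPS4B, an ATPase of endosomal sorting upstream of SERPINB5, fell from 152 ± 13.4 to 75.8 ± 5.33 CPM (edgeR, adjusted p = 3.36e-10), and SERPINB5 overlapped between the groups. ZBTB44, downstream of ST14, fell from 65.4 ± 6.87 to 40.0 ± 7.41 CPM (edgeR, adjusted p = 1.96e-05), and APLP2, upstream of ST14 on the same strand, rose from 715 ± 26.4 to 896 ± 64.3 CPM (edgeR, adjusted p = 0.000205; SD, n = 4 each).

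Around PLAUR, CADM4 downstream rose from 24.2 ± 5.29 to 32.7 ± 2.35 CPM (edgeR, adjusted p = 0.0119) and SMG9 upstream, a factor of nonsense-mediated decay, fell from 23.1 ± 2.73 to 13.1 ± 2.56 CPM (edgeR, adjusted p = 0.000157; SD, n = 4 each). VCL, the gene of vinculin and the next tested gene downstream of PLAU at 77696 bases, rose from 224 ± 10.7 to 271 ± 33.6 CPM (edgeR, adjusted p = 0.00458). DOK1, downstream of HTRA2, fell from 26.7 ± 4.87 to 17.9 ± 3.05 CPM (edgeR, adjusted p = 0.00338). KAT8, which ends 40 bases from the 3′ end of PRSS8 on the other strand, had 8.49 ± 2.08 and 9.32 ± 1.68 CPM and did not pass the test (edgeR, adjusted p = 0.607; SD, n = 4 each).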
